A study of Homo sapiens with 6 samples.

Results

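Receptor tyrosine kinases were described from their messenger RNA levels in the control libraries of a series labelled as NCI-H69 cells. The markers given below did not bear out that label. The list holds 57 human receptor tyrosine kinase genes chosen by gene symbol as members of this family, with no cut on a measured value, and 54 of the 17170 genes in the deposited table matched it. ALK, EPHA1 and KDR had no row and are not analysed here. NCI-H69 is a human cell line from a small cell lung cancer. It is regarded as neuroendocrine and grows as floating aggregates. The labels describe 6 samples of poly(A) RNA: 3 with a stable CRISPR/Cas9 knockout of SCRMP, whose coding sequence lies in MIR7-3HG, and 3 negative controls made with a non-targeting guide RNA. All were grown in RPMI-1640 with fetal bovine serum and carry a single batch label, and the labels do not say whether a clone or a pool of edited cells was used. Each sample's label gives a column name, and the table held these names for all 3 controls but for 0 of the 3 knockouts. No knockout value was therefore used and no test between groups was run. All values below come from the 3 control libraries, given as TPM (transcripts scaled by their length and by the library's total) and as mean ± SD with n = 3. The labels call these biological replicates, but nothing states that they came from separate cultures, so the SD measures the spread between these libraries, which may be technical.

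The control libraries held 20941185, 22309228 and 22477571 estimated reads. Their read counts differed by more than sampling noise in every pair: over all genes tested, chi-square divided by its degrees of freedom was 6.18 to 15.8. Over the receptors alone it was 1.93 to 9.14. The labelled cell type was not borne out by its defining markers. Detection here means at least 1 TPM in each library, which 66.5% of all genes reached. Of 9 measured neuroendocrine small cell lung cancer markers, 1 was detected. This was the adhesion molecule NCAM1, at 25.7 TPM ± 3.66, whereas SYP, INSM1, NEUROD1 and DLL3 lay between 0.240 and 0.717 TPM. The summed level of these 9 markers was 23.3 to 30.8 TPM per library, against 6363 to 6397 TPM for 10 mesenchymal markers, which were all detected and led by VIM at 4542 TPM ± 87.8. Endothelial markers had 1 of 6 detected and a sum of 47.4 to 49.2 TPM, nearly all of it EGFL7, and PECAM1, VWF and CLDN5 were at 0.0267 TPM or less. Among other lists, 2 of 6 leukocyte markers were detected (CORO1A up to a mean of 7.49 TPM, sum 9.24 to 11.9 TPM), 2 of 6 of melanocytes and Schwann cells (MITF, 11.7 TPM, sum 12.6 to 14.6 TPM) and 2 of 8 epithelial ones (ESRP1, 39.4 TPM, sum 38.8 to 49.3 TPM), with GRHL2 at 0 reads. The levels below belong to the libraries whose column names match the samples labelled NCI-H69 control. That match rests on the names alone, and the table's other libraries carry the prefix si, which matches no label. Whether the control columns hold the labelled samples was not tested, nor was the part of the cells' identity in the levels.

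A receptor tyrosine kinase spans the cell membrane once, binds a ligand outside the cell and carries a kinase domain inside it. Ligand binding brings receptors together, they phosphorylate each other on tyrosines, and adaptor proteins that dock there pass the signal to the RAS-MAPK, PI3K and phospholipase C pathways. Some members, among them PTK7, RYK, ERBB3, EPHB6 and EPHA10, are regarded as pseudokinases, which lack residues needed for full catalysis and act through partners. Small cell lung cancer is known for frequent KIT expression, and EGFR is usually low in it.

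The receptor repertoire was uneven, with a few abundant genes and many near 0. Of the 54 receptors, 30 (55.6%) were detected, and the share of all genes detected was 66.5%. A mean of 10 TPM or more was reached by 17 receptors (31.5%), and by 44.1% of all genes. The median receptor had 2.17 TPM and the median gene 6.87 TPM, a difference of -1.31 on the log2(TPM + 1) scale. Together the receptors summed to 506.3, 467.8 and 472.1 TPM in control replicates 1, 2 and 3. DDR2 and PTK7, the only receptors at 50 TPM or more, made up 36.0% ± 0.870 of this sum, and with RYK, ROR2 and FGFR4 the share was 51.4% ± 0.844. At the other end, 24 receptors were not detected and 16 had fewer than 10 reads in every library, so differences among these 16 were not detectable at this depth.

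**Figure D1:**
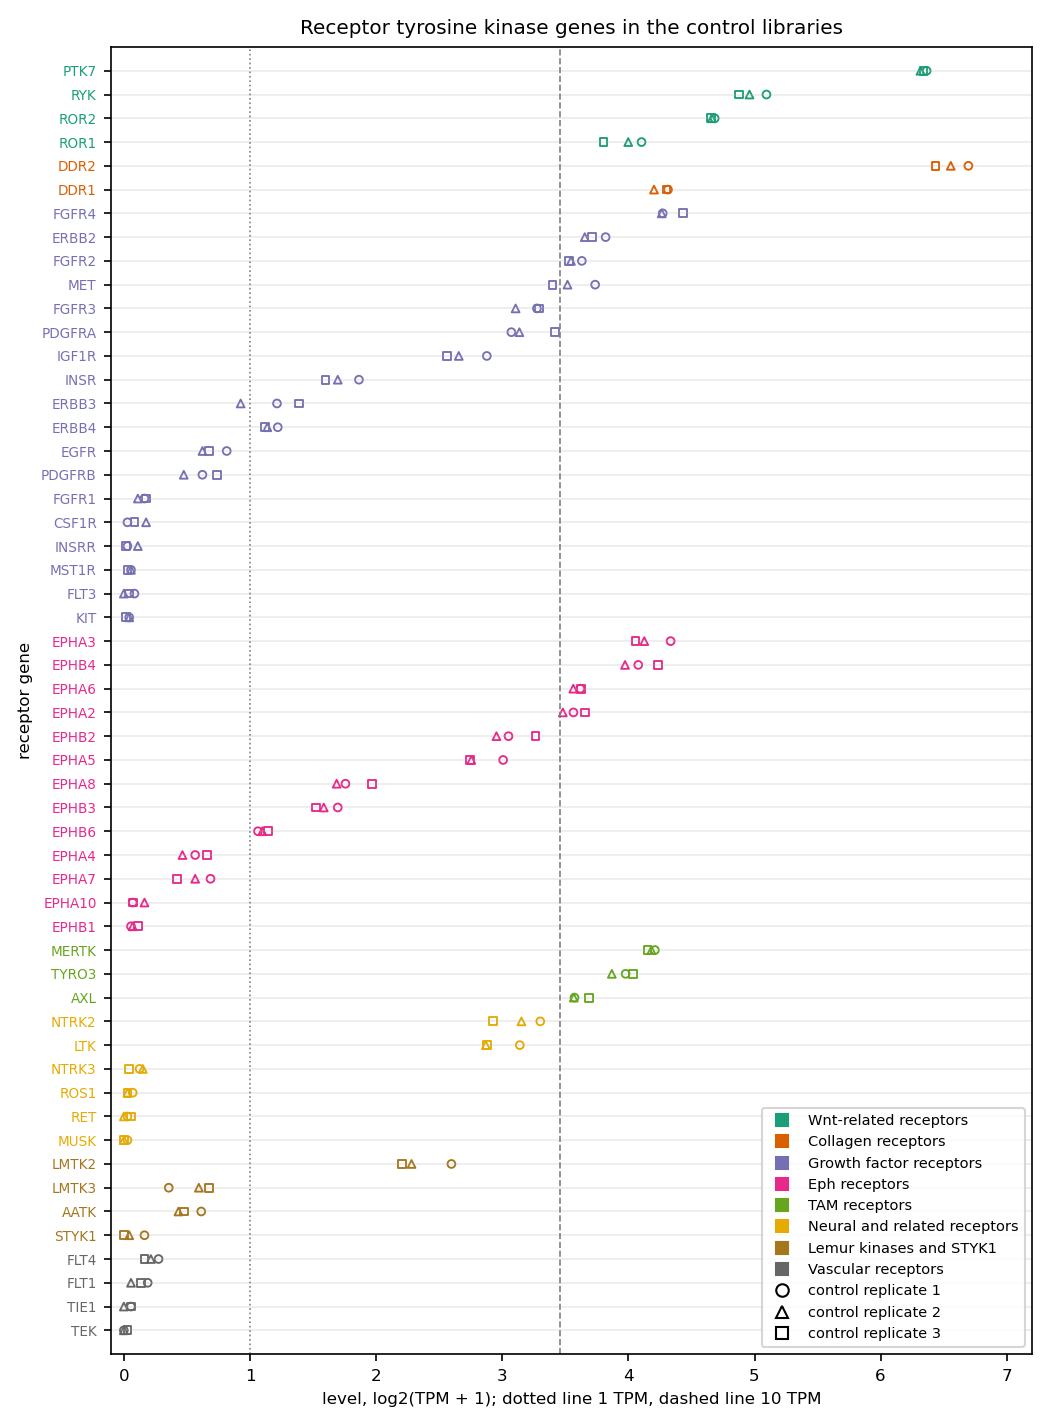
Level of each of the 54 measured receptor tyrosine kinase genes in each control library, on the log2(TPM + 1) axis, grouped by class and ordered by mean within a class. Circles, triangles and squares are control replicates 1, 2 and 3, and the vertical lines mark 1 and 10 TPM. DDR2 and PTK7 stand at the right, and the 4 vascular receptors lie near 0.

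Receptors that bind collagen or belong to Wnt signalling held the larger part of the receptor transcripts. The 4 Wnt-related receptors, PTK7, RYK, ROR1 and ROR2, made up 31.1% ± 0.518 of summed receptor TPM, and the 2 collagen receptors, DDR1 and DDR2, 23.2% ± 1.02. The 18 receptors for growth factors of the EGF, insulin, PDGF, FGF and HGF families came to 16.9% ± 0.516 and the 13 Eph receptors to 15.7% ± 0.676. The 3 TAM receptors took 8.92% ± 0.408. Neural and related receptors held 3.05% ± 0.283 over 6 genes, lemur kinases with STYK1 1.06% ± 0.109 over 4 genes, and the 4 vascular receptors 0.0597% ± 0.0171. The 5 pseudokinase receptors named above held 23.5% ± 0.315 of the sum, nearly all of it PTK7 and RYK.

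**Figure D2:**
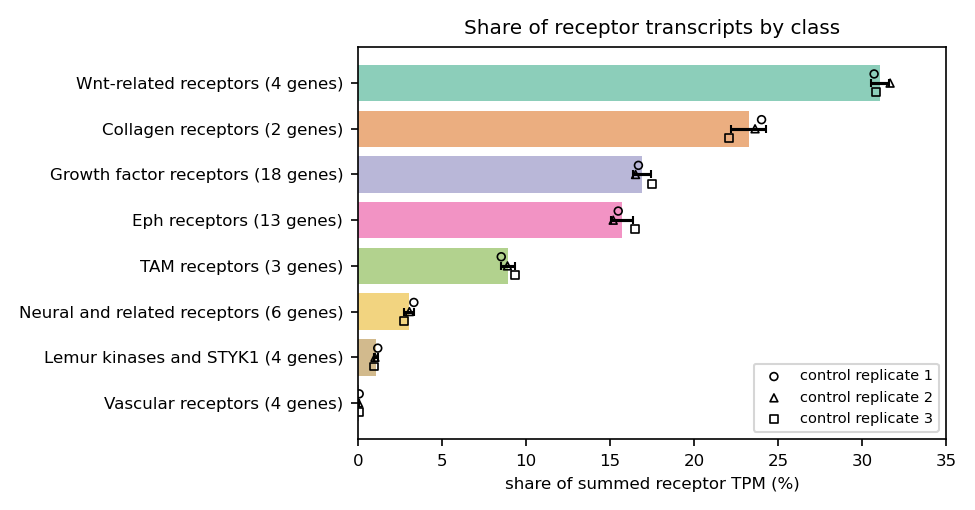
Share of summed receptor TPM held by each class, in percent. Bars are means of the 3 control libraries, error bars are SD, and symbols are the single libraries. The Wnt-related and collagen receptor classes, with 6 genes in all, held 54.3% ± 1.24.

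The order of adjacent receptors was clear for the 4 highest and at a single step further down. Among the 17 receptors with a mean of 10 TPM or more, the ranges over libraries did not overlap between DDR2 and PTK7, PTK7 and RYK, RYK and ROR2, ROR2 and FGFR4, or TYRO3 and ERBB2. The other 11 of 16 adjacent pairs overlapped. From FGFR4 (19.1 TPM) through DDR1, MERTK, EPHA3, EPHB4 and ROR1 to TYRO3 (14.6 TPM) each receptor's range overlapped that of the next, and the same held from ERBB2 (12.3 TPM) through AXL, EPHA6, EPHA2 and FGFR2 to MET (10.8 TPM).

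DDR2, a receptor activated by fibrillar collagens, was the highest member. It had 102.7, 93.1 and 85.5 TPM in control replicates 1, 2 and 3, from 10637.7 to 11951.6 reads, and ranked 1500 among all genes (gene number 4921, chromosome 1, 162630863 to 162787405, GRCh38.p14). All libraries lay above those of every other receptor. Its relative DDR1, which also responds to collagens and is known mainly from epithelial cells, had 18.9, 17.4 and 18.7 TPM. The libraries of DDR1 lay close together and far below those of DDR2. Of their collagen ligands, COL3A1 had 567.5 TPM ± 19.0 and COL1A1 58.5 TPM ± 5.34.

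PTK7, a pseudokinase that acts as a co-receptor in Wnt and planar cell polarity signalling, was the next highest. It had 81.4, 78.7 and 80.0 TPM, with a coefficient of variation of 1.70%, and ranked 1767 (gene number 5754, chromosome 6, 43076314 to 43161715). The 3 libraries were nearly equal. RYK, a pseudokinase that binds Wnt proteins, had 33.2, 30.1 and 28.3 TPM, although a processed copy of the gene exists (RYKP1) and could have taken or given reads. ROR2, a WNT5A receptor of the developing skeleton, had 24.7, 24.3 and 24.2 TPM, the smallest coefficient of variation of the abundant members (1.08%). ROR1, which is expressed in embryos and in several cancers, had 16.2, 15.0 and 13.0 TPM. All 4 of these receptors were at 10 TPM or more in every library, and 44.1% of all genes had a mean at that level. MUSK, of the same subfamily as ROR1 and ROR2, was classed with the neural and related receptors and averaged 0.00667 TPM. WNT5A, the listed ligand of RYK, ROR1 and ROR2, had 20.2, 14.4 and 14.7 TPM.

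The promoter windows of DDR2 and PTK7 differed widely in CpG dinucleotides, and so did those of receptors near 0. RefSeq windows (GRCh38.p14) run from 250 bases before to 50 bases after an annotated start of a gene. Where a gene has several, the one richest in CpG was taken, and which start these cells use was not tested. Windows are shown for the 2 highest receptors and, chosen after their values were seen, for a CpG-rich and a CpG-poor receptor near 0. The DDR2 window (chr1:162631725-162632024, + strand) has 5 CpG and 45.0% G+C, and the PTK7 window (chr6:43076064-43076363, + strand) has 34 CpG and 73.3% G+C. That of DDR2 is 1 of 3 for the gene and lies downstream of the gene start given above. The KIT window (chr4:54657707-54658006, + strand) has 38 CpG and 74.3% G+C, and the TEK window (chr9:27108975-27109274, + strand) has 5 CpG and 48.0% G+C. Each is written 5′ to 3′, with the dinucleotide CG, which reads the same on both strands, in capitals.
DDR2: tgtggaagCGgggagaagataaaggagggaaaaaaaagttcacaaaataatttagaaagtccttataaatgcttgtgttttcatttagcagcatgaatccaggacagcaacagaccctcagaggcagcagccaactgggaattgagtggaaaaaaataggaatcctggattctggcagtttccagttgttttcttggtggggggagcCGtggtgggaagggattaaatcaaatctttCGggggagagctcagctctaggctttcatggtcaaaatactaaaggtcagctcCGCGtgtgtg
PTK7: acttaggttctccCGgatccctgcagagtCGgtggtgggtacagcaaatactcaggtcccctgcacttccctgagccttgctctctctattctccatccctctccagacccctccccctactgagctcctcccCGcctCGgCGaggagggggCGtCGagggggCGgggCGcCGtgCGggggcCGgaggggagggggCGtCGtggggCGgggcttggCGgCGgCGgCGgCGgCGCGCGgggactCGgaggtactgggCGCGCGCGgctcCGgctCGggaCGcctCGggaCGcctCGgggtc
KIT: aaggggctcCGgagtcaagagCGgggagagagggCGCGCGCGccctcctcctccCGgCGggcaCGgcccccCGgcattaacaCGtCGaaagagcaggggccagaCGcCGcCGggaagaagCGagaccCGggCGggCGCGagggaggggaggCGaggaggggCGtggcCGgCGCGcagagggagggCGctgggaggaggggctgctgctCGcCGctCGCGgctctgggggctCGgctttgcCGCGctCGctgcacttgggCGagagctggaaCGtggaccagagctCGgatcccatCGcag
TEK: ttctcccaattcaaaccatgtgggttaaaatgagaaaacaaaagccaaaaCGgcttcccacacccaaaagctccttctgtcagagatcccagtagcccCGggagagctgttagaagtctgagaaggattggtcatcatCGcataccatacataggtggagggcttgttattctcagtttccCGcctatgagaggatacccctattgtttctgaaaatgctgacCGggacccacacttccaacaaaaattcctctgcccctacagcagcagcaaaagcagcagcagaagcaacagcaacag
Thus the CpG-poor windows belonged to DDR2, at 93.8 TPM ± 8.61, and to TEK, at 0.00667 TPM ± 0.0115, and the CpG-rich ones to PTK7, at 80.0 TPM ± 1.36, and to KIT, at 0.0233 TPM ± 0.0115. A window was found for 48 of the 54 receptors and for all 30 that were detected. Of these 30, 24 (80.0%) held at least 20 CpG, with a median of 31. The share was 81.2% over 9462 detected genes of the whole table that had a window, and their median was 29. Over all 35116 windows of the reference, 96.0% held at least 1 CpG and 41.2% at least 20. These shares count every window and not the richest of each gene, so they cannot be set against the shares of genes. Only 18 of the 24 receptors that were not detected had a window, and since the missing genes could change their shares, the 2 sets were not compared. The 4 windows printed show the range of CpG content and not how it goes with level.

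**Figure D3:**
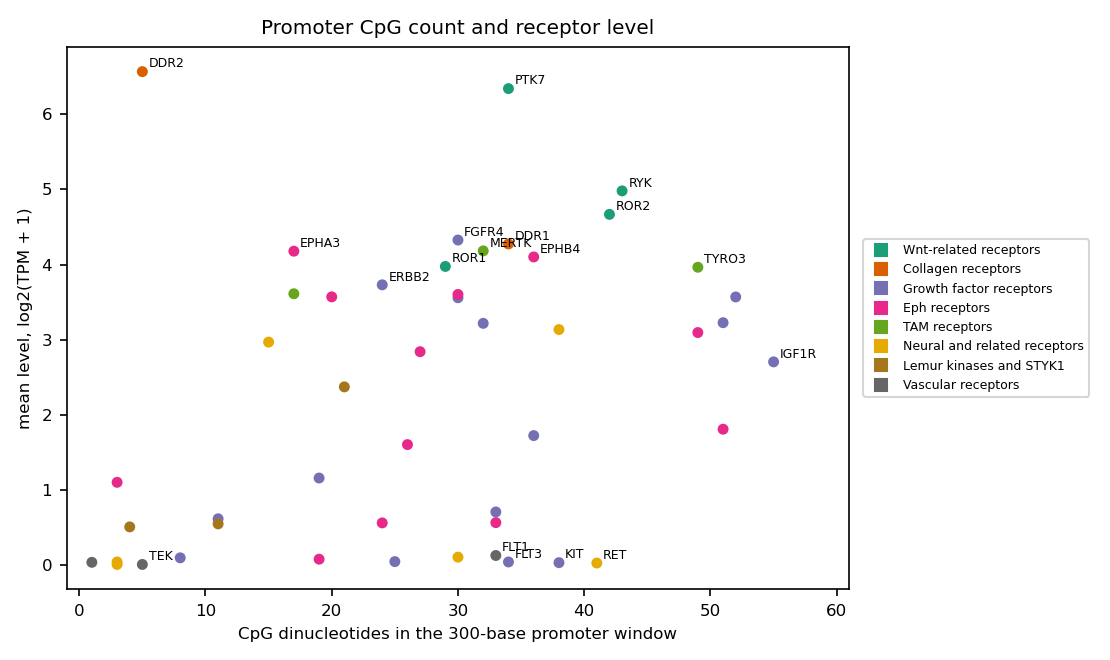
Mean level of 48 receptor genes, as log2(TPM + 1), against the number of CpG dinucleotides in the CpG-richest 300-base promoter window of the gene. Each point is a gene, coloured by class. DDR2 combines 5 CpG with the highest level, and KIT, RET and FLT3 lie near 0 with 34 to 41 CpG. TIE1, MUSK, ROS1 and TEK also lie near 0, with 1 to 5 CpG.

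Fibroblast growth factor receptors bind FGF ligands together with heparan sulfate or a klotho protein. FGFR4, known from liver and from muscle tumours, was the highest at 18.3, 18.2 and 20.6 TPM. FGFR2 had 11.4, 10.7 and 10.5 TPM and FGFR3 8.68, 7.61 and 8.78 TPM, and FGFR3 has several pseudogenes that could share its reads. FGFR1, the FGF receptor found in most mesenchymal cells, had 0.120, 0.080 and 0.130 TPM from 4.28 to 6.54 reads. Its libraries lay below those of the other 3 FGF receptors without overlap. FGFR4 made up 49.6% of the summed TPM of the family.

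Among ErbB receptors, which respond to EGF-like ligands, ERBB2 alone was abundant. ERBB2, which has no known ligand and pairs with the other members, had 13.1, 11.6 and 12.1 TPM and 79.6% of the family's summed TPM. ERBB3, its pseudokinase partner, had 1.32, 0.900 and 1.62 TPM and missed detection through control replicate 2. Its reads were 40.7, 47.5 and 49.4, so that replicate was lowest in TPM but not in reads. ERBB4, a neuregulin receptor, had 1.33, 1.20 and 1.17 TPM and was detected. EGFR had 0.760, 0.540 and 0.600 TPM from 57.6 to 74.0 reads, below 1 TPM in every library.

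Receptors for insulin-like ligands were moderate. IGF1R had 6.35, 5.30 and 4.91 TPM and INSR 2.64, 2.24 and 2.03 TPM, and INSRR, an alkali sensor of the same family, had 1, 5 and 1 reads. The values of IGF1R lay above those of INSR in every library. Of the insulin receptor substrates that pass on their signal, IRS1 had 0.727 TPM ± 0.0907 and IRS2 a single nonzero value of 0.010 TPM.

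In the PDGF receptor family, PDGFRA, the receptor for PDGF-A and PDGF-C, had 7.41, 7.79 and 9.70 TPM and held 92.7% of the family's sum. PDGFRB, its partner for PDGF-B and PDGF-D, had 0.540, 0.390 and 0.670 TPM, and the 2 genes did not overlap. KIT, the stem cell factor receptor, had 2, 2 and 1 reads. CSF1R, the receptor of macrophages, had at most 6 reads in a library, and FLT3, of early blood cells, had 2, 0 and 1. MET, the receptor for hepatocyte growth factor, had 12.3, 10.4 and 9.55 TPM, with a coefficient of variation of 13.2%, the largest among the 17 abundant receptors. Its relative MST1R had 2, 2 and 1 reads.

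The TAM receptors take part in the clearance of dying cells. All bind GAS6, and TYRO3 and MERTK are listed with protein S as well. All 3 had a mean of 10 TPM or more, as did 44.1% of all genes. MERTK had 17.5, 17.2 and 16.8 TPM, TYRO3 14.8, 13.6 and 15.4 TPM, and AXL 10.9, 10.8 and 11.9 TPM. The libraries of MERTK lay above those of TYRO3, which lay above those of AXL, although TYRO3 has a pseudogene, TYRO3P, that may share its reads. No member held more than 39.9% of their sum. The ligand gene PROS1 had 14.1 TPM ± 1.76 and GAS6 4.60 TPM ± 0.640.

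Eph receptors bind ephrins on neighbouring cells and guide cell sorting and axon growth. Of 13 measured, 9 were detected and 4 reached 10 TPM, where the shares of all genes were 66.5% and 44.1%. EPHA3 had 19.2, 16.5 and 15.6 TPM, EPHB4 15.9, 14.7 and 17.9 TPM, EPHA6 11.3, 10.8 and 11.3 TPM, and EPHA2 10.8, 10.2 and 11.6 TPM. These 4 fell into an upper pair and a lower pair whose libraries did not overlap. EPHA6 rested on 263.0 to 272.7 reads in a library, and EPHA2, at a similar TPM, on 498.4 to 598.0. Which transcript of EPHA6 was measured was not tested. EPHB2 (7.54 TPM ± 0.953) and EPHA5 (6.16 TPM ± 0.763) followed, then EPHA8 (2.50 TPM ± 0.361), EPHB3 (2.04 TPM ± 0.183) and the pseudokinase EPHB6 (1.15 TPM ± 0.0603). EPHA4 and EPHA7 had means of 0.480 and 0.477 TPM, and EPHA10 and EPHB1 had at most 5 reads in a library. Of the ephrins, EFNA1 was highest at 33.4 TPM ± 4.93, ahead of EFNA4 (21.1 TPM ± 1.16), EFNA3 (16.3 TPM ± 2.32) and EFNA5 (14.8 TPM ± 1.12). EFNA2 was the lowest of the ephrins measured, at 1.16 TPM ± 0.153. Of the B class, EFNB3 was at 8.42 TPM ± 1.22, EFNB1 at 5.71 TPM ± 0.337 and EFNB2 at 2.86 TPM ± 0.535.

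Receptors of blood and lymph vessels were not detected. FLT4, the VEGF-C receptor, had at most 11.1 reads and FLT1, a VEGF-A receptor, at most 7.19, while TIE1 had at most 1.96 and the angiopoietin receptor TEK 1 read in all. The endothelial markers given above were low as well, apart from EGFL7. Among neural and related receptors, NTRK2, the receptor for BDNF, had 8.86, 7.89 and 6.60 TPM, and LTK, the relative of ALK, 7.81, 6.31 and 6.35 TPM. Both were detected in every library. NTRK3, RET, ROS1 and MUSK had at most 5.82 reads in a library. Of the lemur kinases, which sit on endosomes, LMTK2 had 5.05, 3.86 and 3.62 TPM, whereas LMTK3 and AATK stood at 0.463 and 0.423 TPM and STYK1 at 0.050 TPM.

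Ligands were compared with their receptors in the same libraries. Of 75 listed ligand genes, 68 were measured and 38 (55.9%) detected, and 14 reached a mean of 10 TPM. Over all genes, 66.5% were detected and 44.1% had a mean of 10 TPM or more. The highest were the stress-induced factor GDF15 (594.9 TPM ± 27.9), the heparin-binding factor MDK (210.4 TPM ± 9.89), the metabolic hormone FGF21 (202.9 TPM ± 21.3) and VEGFA (147.4 TPM ± 4.24). Of 69 receptor and ligand pairs with both genes measured, both were detected in 23, only the receptor in 11, only the ligand in 16 and neither in 19. Among 35 receptors with such a pair, 20 were detected and 18 of these had at least 1 listed ligand detected. The exceptions were MET, whose ligand HGF had 0.593 TPM ± 0.276, and FGFR3, whose listed ligands FGF1, FGF9 and FGF18 had at most 0.907 TPM. Of the 15 receptors that were not detected, 12 had a ligand that was. A transcript pair says nothing about protein or signalling.

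Some abundant ligands stood beside a detected receptor and others beside a listed receptor near 0. PDGFC (36.0 TPM ± 2.84) and PDGFA (8.93 TPM ± 0.639) were measured beside PDGFRA at 8.30 TPM ± 1.23. BDNF (13.3 TPM ± 0.0874) was measured beside NTRK2 at 7.78 TPM ± 1.13, and EFNA1 beside EPHA2 at 10.9 TPM ± 0.736. In contrast, VEGFA and VEGFB (34.0 TPM ± 1.21) stood beside FLT1 at 0.0933 TPM. KDR, the main VEGFA receptor of blood vessels, is not analysed here, and the co-receptor NRP1 averaged 14.5 TPM ± 0.583. NELL2, a ligand of ROS1, had 91.0 TPM ± 7.95 beside ROS1 at 0.030 TPM. GDF15 signals through RET with the co-receptor GFRAL, and these had 0.020 and 0.410 TPM. FGF21 needs the klotho protein KLB, which had 0.060 TPM. For FGFR2 and FGFR4, FGF7 had 3.31 TPM ± 0.340 and FGF19 2.91 TPM ± 0.316, and FGF7 has pseudogenes that may share its reads, while FGF1, FGF2 and FGF10 had at most 2.46 reads in a library.

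**Figure D4:**
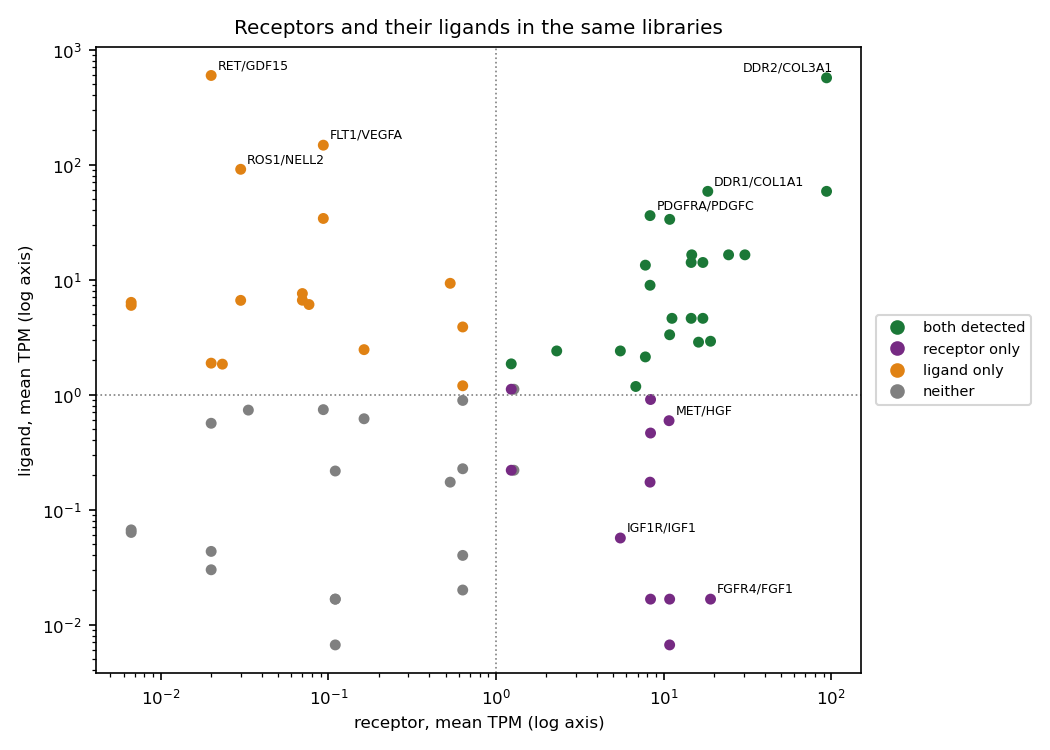
Mean TPM of ligand against mean TPM of receptor, both on log axes, for 69 pairs whose genes were both measured in the control libraries. Dotted lines mark 1 TPM and colours say which gene of a pair was detected, that is at least 1 TPM in each library. COL3A1 with DDR2 lies at the upper right, and GDF15 with RET, VEGFA with FLT1 and NELL2 with ROS1 lie at the upper left.

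Co-receptors and shared intracellular genes were taken from lists. Of 17 measured co-receptors, 12 (70.6%) were detected, near the 66.5% of all genes, led by the proteoglycan core gene SDC2 (50.8 TPM ± 2.97), the hyaluronan receptor CD44 (45.5 TPM ± 2.93), SDC4 (23.5 TPM ± 2.23) and the scavenging receptor IGF2R (16.4 TPM ± 3.20). Of 36 adaptor and RAS-MAPK genes, 32 (88.9%) passed 1 TPM in every library, and their list's median level was 16.3 TPM ± 1.22. The kinase MAP2K2 (229.2 TPM ± 9.41), the adaptor SHC1 (78.8 TPM ± 3.83) and the PI3K subunit PIK3R2 (51.6 TPM ± 2.60) were among the highest. Of 31 negative regulators, 24 (77.4%) were detected. The phosphatases PTPN12 (94.8 TPM ± 9.86) and PTPN2 (68.5 TPM ± 3.76), the endosomal sorting gene HGS (48.1 TPM ± 1.61) and the adaptor GRB10 (39.3 TPM ± 4.34) led them. The share of all genes detected was 66.5%. Feedback inhibitors in the list were uneven. ERRFI1, an inhibitor of ErbB receptors, averaged 27.5 TPM ± 1.08, and of the Sprouty and SPRED genes SPRED2 averaged 13.7 TPM ± 2.02, SPRY2 7.14 TPM ± 0.193, SPRY1 6.64 TPM ± 1.16 and SPRED1 5.88 TPM ± 1.31, but SPRY4 0.250 TPM ± 0.0458. The ERK phosphatases DUSP6 and DUSP5 averaged 0.457 TPM ± 0.146 and 0.103 TPM ± 0.0643. All 7 measured genes of receptor shedding were detected, with MMP14 at 272.1 TPM ± 2.71, ADAM15 at 115.1 TPM ± 7.85 and the gamma-secretase subunit gene NCSTN at 76.3 TPM ± 7.60. Of 29 measured non-receptor tyrosine kinases, 19 (65.5%) were detected, close to the share of all genes, and YES1 (83.2 TPM ± 4.81), TYK2 (37.3 TPM ± 1.55), FYN (30.9 TPM ± 0.707) and MATK (30.3 TPM ± 2.86) were highest.

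Levels were set side by side for 7 chosen pairs of receptors on the same chromosome (RefSeq, GRCh38.p14), from 473 bp to 7332 kb apart. In 2 of them 1 receptor was detected and the other was not. No limit on distance was set and other pairs, such as FGFR4 and FLT4 on chromosome 5, were left out. The count of 2 is therefore no rate for neighbouring genes. On chromosome 4, PDGFRA had 8.30 TPM ± 1.23 and KIT, 359.7 kb away with no gene of the table between them, 0.0233 TPM ± 0.0115. CSF1R and PDGFRB, 473 bp apart on chromosome 5, had 0.070 TPM ± 0.0557 and 0.533 TPM ± 0.140, and FLT3 and FLT1 on chromosome 13 were both near 0. In these 2 pairs neither receptor was detected. On chromosome 3, RYK had 30.5 TPM ± 2.44 and EPHB1, 544.4 kb away with 4 genes of the table between them, 0.0567 TPM ± 0.0208. Both receptors were detected for LTK (6.82 TPM ± 0.855) and TYRO3 (14.6 TPM ± 0.920), 45.4 kb apart on chromosome 15, and for EPHA8 and EPHB2, 107.2 kb apart on chromosome 1. The same held for the distant pair EPHA3 and EPHA6, 7332 kb apart on chromosome 3 with 5 genes of the table between them.

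The spread between libraries of the abundant receptors was like that of other genes of their level. The median coefficient of variation was 6.36% over the 17 receptors at 10 TPM or more and 6.11% over all genes at that level. Of the 30 detected receptors, 19 had their highest value in control replicate 1, 0 in replicate 2 and 11 in replicate 3, and the shares of all detected genes were 57.7%, 17.3% and 25.0%. The difference between control replicates 3 and 1 went with transcript length, taken as estimated reads per TPM relative to the median detected gene. LMTK2 (relative length 3.02), NTRK2 (2.52), INSR (3.18) and IGF1R (2.56) lay -0.48, -0.42, -0.38 and -0.37 from replicate 1 on the log2 scale in replicate 3, the 4 lowest values. PDGFRA (1.56) lay 0.39 and EPHA8 (0.646) 0.29 from it, the 2 highest, and the relative length of PDGFRA is above the median of 1.45 of the detected receptors. The longest, ERBB4 (4.07), lay -0.18 from it and TYRO3 (2.41) 0.06. Across the 30 detected receptors Spearman's rho between length and this difference was -0.53, and across the 23 at 5 TPM or more in every library it was -0.31. Across all 11418 detected genes rho was -0.44. Genes are not independent replicates and share these libraries, so no p is given. The part of length in the spread of single receptors was not tested.

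**Figure D5:**
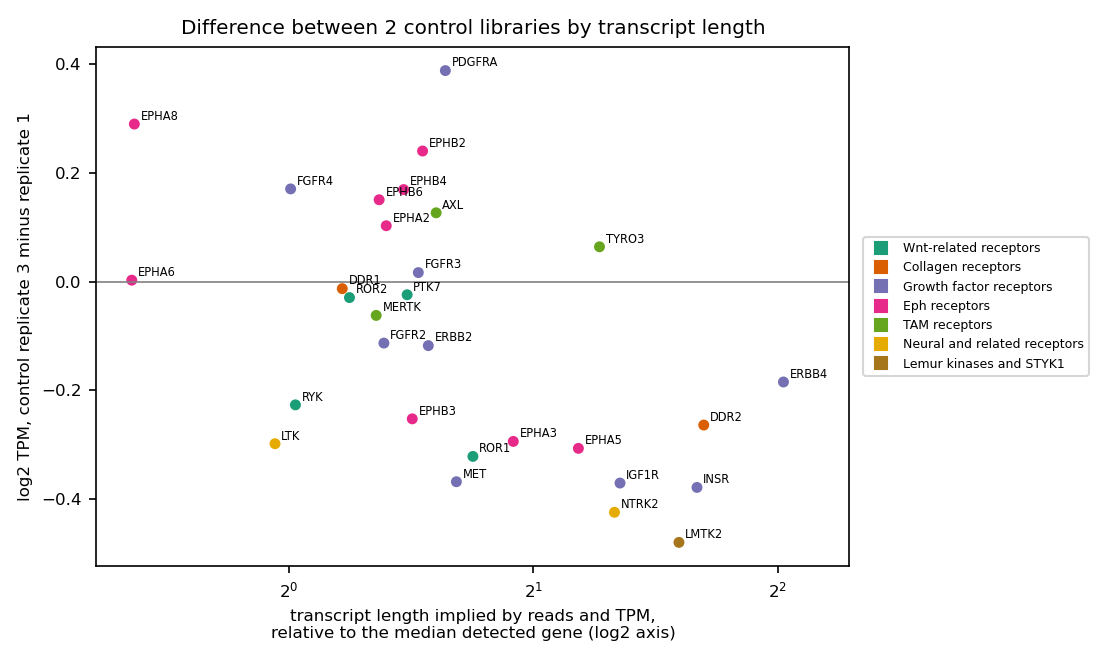
Log2 TPM in control replicate 3 minus control replicate 1, against the transcript length implied by reads and TPM relative to the median detected gene (log2 axis), for the 30 detected receptors. Points are genes coloured by class, and the horizontal line marks no difference. LMTK2 lies lowest at -0.48 and PDGFRA highest at 0.39.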

How the data were processed

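RNA of 6 samples labelled NCI-H69 was described, per the labels' protocols, as isolated with TRIzol, treated with DNase and enriched for poly(A) RNA. BGI made it into libraries that keep the strand, sequenced on a DNBSEQ-T7 instrument. Per the submitters' processing notes, HISAT2, StringTie, DESeq2 and the build GRCh38 had some role, with no version named. For the annotation release, nothing was found in the labels. Deposited by the authors were TPM, FPKM and read counts, per the file headers. The counts the authors deposited are estimated counts, since many are not whole, and TPM sum to the same total in each library. Because TPM are shares of that total, abundant genes lower all others.

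Columns were given to samples by name. The header has 12 value columns of 3 libraries under the prefix si, which matches no label, and they were used in no step, so no comparison between groups was fitted. The receptor list was proposed, and classes and other lists chosen, with earlier results of these data known, although no rule used a value. Every receptor is named or counted, as are the 4 highest genes of each pathway list and ligands of receptors at 10 TPM or more, except for a few genes that are not reported here and stay in the counts and medians. Other named genes were chosen after their values were seen. Detection required at least 1 TPM in each library. Differences from the median gene used log2(TPM + 1). Differences between control replicates 3 and 1 used log2 of TPM with nothing added. Medians, SDs and shares were computed over libraries, and positions and promoter windows came from RefSeq GRCh38.p14, matched by gene number. The chi-square between libraries was tested on simulated data. A planned search of receptor proteins for catalytic motifs was not run. The median detected receptor rested on 585.8 estimated reads per library and the median gene on 304.2, and receptors with a few reads carry a large counting error. Software was scipy 1.17.1, pandas 2.3.3, matplotlib 3.10.9 and numpy 2.4.6 under Python 3.11.15.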

Additional observations from a re-analysis of the deposited data

How the results depend on the processing

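No paired analysis was possible because the knockout samples had no matching column, so the replicate numbers that both groups share paired nothing. Receptors detected numbered 30, and 23 to 37 under the alternatives of another threshold, FPKM, at least 10 estimated reads, TPM without ribosomal protein genes and left-out libraries. Receptors at 10 or more were 17 by TPM and 17 without any of the 3 libraries in turn, 21 without ribosomal protein genes, 6 by FPKM, whose totals are lower, and 4 at 20 TPM. The alternative of estimated reads gave no count here, since no read number stands for 10 TPM. The difference of -1.31 between the median receptor and the median gene (log2) was -1.14 with FPKM, -1.09 with estimated reads, -1.38 without ribosomal protein genes, -1.62 with 0.1 added in place of 1, and -1.33 to -1.31 with a library left out. The share of the 5 highest receptors was 59.0% by estimated reads, a measure without length scaling, against 51.4% (51.0% to 51.8% with a library left out), and that of collagen and Wnt-related receptors 59.9% against 54.3%. The alternatives for pairs, lists, order, the class share and length were chosen after seeing the data. Pairs with both genes detected fell to 12 at 5 TPM, against 23, and rho with length was -0.31 at 5 TPM, against -0.53, and no cause was tested. A receptor's side of the median gene (log2) was recomputed 324 times, and it changed 7 times, for 6 receptors. With estimated reads IGF1R moved to 0.79, EPHA5 to 0.78, LMTK2 to 0.63 and EPHA6 to -0.19. LTK moved to 0.0126 without ribosomal protein genes. With a library left out LTK ranged from -0.0522 to 0.0239, positive without control replicate 2, and EPHB2 from -0.00808 to 0.191, negative without control replicate 3. Depth limits the 16 receptors under 10 reads, whose order is not known.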
